A study of Mus musculus with 6 samples.

Results

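Cytosolic ribosomal proteins build the ribosomes that translate nuclear-encoded mRNAs, and their genes were examined here in the liver of mice that lack *Shmt2*, the mitochondrial serine hydroxymethyltransferase, in hepatocytes. The genes were chosen by symbol: names beginning with Rpl or Rps followed by a number, with an optional a, x or l, and Rplp0 to Rplp2 and Rpsa, without pseudogenes named -ps or Gm. Of 49671 genes in the count table, 83 matched, and 79 of these reached at least 10 counts in at least 3 of the 6 mice. They comprised 47 genes of the large (60S) subunit and 32 of the small (40S) subunit, and all 79 also passed the filter of the test. The 4 genes left out were the paralogs Rpl3l, Rpl10l, Rpl39l and Rpl32l, with 13 counts or fewer in every mouse and with Rpl10l at 0 in all 6.

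Liver RNA was sequenced from 6 male C57BL/6J mice, 3 SHMT2 fl/fl (labelled WT) and 3 SHMT2 HKO (labelled KO). The SHMT2 fl/fl mice carry loxP sites around exons of *Shmt2* and no Cre. The SHMT2 HKO mice carry the same alleles together with Albumin-Cre, which deletes the gene in hepatocytes and leaves it in the other cells of the liver. All 6 ate the AMLN diet, which supplies much fat, fructose and cholesterol. It was begun at 4 weeks of age and given for 18 weeks, and livers were taken at 22 weeks. Gene counts ranged from 23090837 to 34089722 per mouse.

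A ribosome holds 1 copy of nearly every protein of this family, so cells make these proteins in matched amounts. Their mRNAs begin with a C followed by an unbroken stretch of pyrimidines, the 5′ terminal oligopyrimidine (TOP) motif, through which mTORC1 and the RNA-binding protein LARP1 control their translation. The amount of mRNA and its translation are thus separate layers, and only the amount was measured here.

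The start-site regions are shown for some of the genes that moved most and for the paralogs Rps27 and Rps27l. They are given because the TOP stretch is what the family shares and the choice of genes by symbol did not use it. RefSeq promoters (GRCm38.p6) were matched for 57 of the 79 genes, with 68 start sites. An unbroken run of at least 8 C or T on the gene's strand lay within 50 bases of the start at 80.9% of these start sites, against 35.7% of all 32851 start sites and 34.7% of those of mitochondrial ribosomal protein genes. The longest such run had a median of 10.5 bases in the family and 7 bases over all start sites. On the gene's strand, the letters CTTTC occurred at 51.5% of the family's start sites and 12.8% of all. The longer CTTTCC, which contains them, occurred at 30.9% and 4.69%. Each line below gives 30 bases, 5′ to 3′ on the gene's strand, with the longest C or T run in capitals.
Rps12, chr10:23787182-23787211, minus strand: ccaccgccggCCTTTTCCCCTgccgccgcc
Rpl10a, chr17:28328572-28328601, plus strand: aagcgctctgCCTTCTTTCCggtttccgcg
Rpl12, chr2:32961732-32961761, plus strand: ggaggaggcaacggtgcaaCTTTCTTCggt
Rps27, chr3:90213632-90213661, minus strand: ttccgctttcgCTCCTTTCCggcggtgacg
Rps27l, chr9:66946053-66946082, plus strand: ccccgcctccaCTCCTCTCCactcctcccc
Rpl27, chr11:101442193-101442222, plus strand: gtcatcctcgCTCCTCCCTCCacacgccgg
Rpl24, chr16:55966227-55966256, plus strand: acctcaaacccaCTCCCCgccaatgctgta
The runs were 11 bases long in Rps12 and Rpl27, 10 in Rpl10a, 9 in Rps27 and Rps27l, 8 in Rpl12 and 6 in Rpl24. In Rps27l another run of equal length follows the one in capitals. Relative to the annotated start, the runs in capitals began at position -42 in Rpl27, -36 in Rpl24, -22 in Rps27l, -2 in Rps27, 9 in Rps12, 18 in Rpl10a and 40 in Rpl12, where negative positions lie before the start. Whether a given run opens the mRNA was not tested.

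The targeted gene was reduced in every SHMT2 HKO liver. Levels are given as CPM, the count scaled to the library size after TMM, a factor that sets most genes equal between mice. *Shmt2* stood at 94.5, 109 and 93.8 CPM in SHMT2 fl/fl mice 1 to 3. In SHMT2 HKO mice 1 to 3 it stood at 24.9, 28.2 and 19.3 CPM. The log2 fold change was -2.04 ± 0.161 (SE, adjusted p = 0.000639, edgeR quasi-likelihood test), and the 3 mice of each genotype did not overlap (p = 0.1 by a two-sided exact permutation test, the smallest that 3 against 3 allows).

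Relative to most genes, ribosomal protein mRNAs differed little between the genotypes. Of the 79 genes, 1 was called higher in SHMT2 HKO livers, Rps27l, and 1 lower, Rps12, at an adjusted p under 0.05 with TMM scaling. Over all 16089 genes tested, 29.0% were called, 12.5% higher and 16.5% lower. At the study's own cutoff, an unadjusted p under 0.05 with an adjusted p under 0.25, 1 gene was higher and 4 were lower, against 19.5% and 21.8% of all genes (41.4% in either direction). The median log2 fold change of the family was -0.08, beside 0.03 over all genes, and it was 0.02, beside 0.20, after a correction for GC content and exon length. The SD of the fold changes was 0.20 on the log2 scale, beside 0.93 over all genes. Of the family, 71 genes (89.9%) lay within 0.3 of 0 on that scale, compared with 40.7% of all genes.

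The median SE of the log2 fold changes was 0.171 in the family and 0.204 over all genes. The 95% intervals also stayed near no change more often, which reflects the small fold changes as well as the SE. The 95% interval of the fold change lay within 2-fold in either direction for 76 of the 79 genes, against 52.7% of all genes. It lay within 1.5-fold for 58 of the 79, against 25.3%. Smaller changes in genes without a call were not detectable with 3 mice per genotype.

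**Figure D1:**
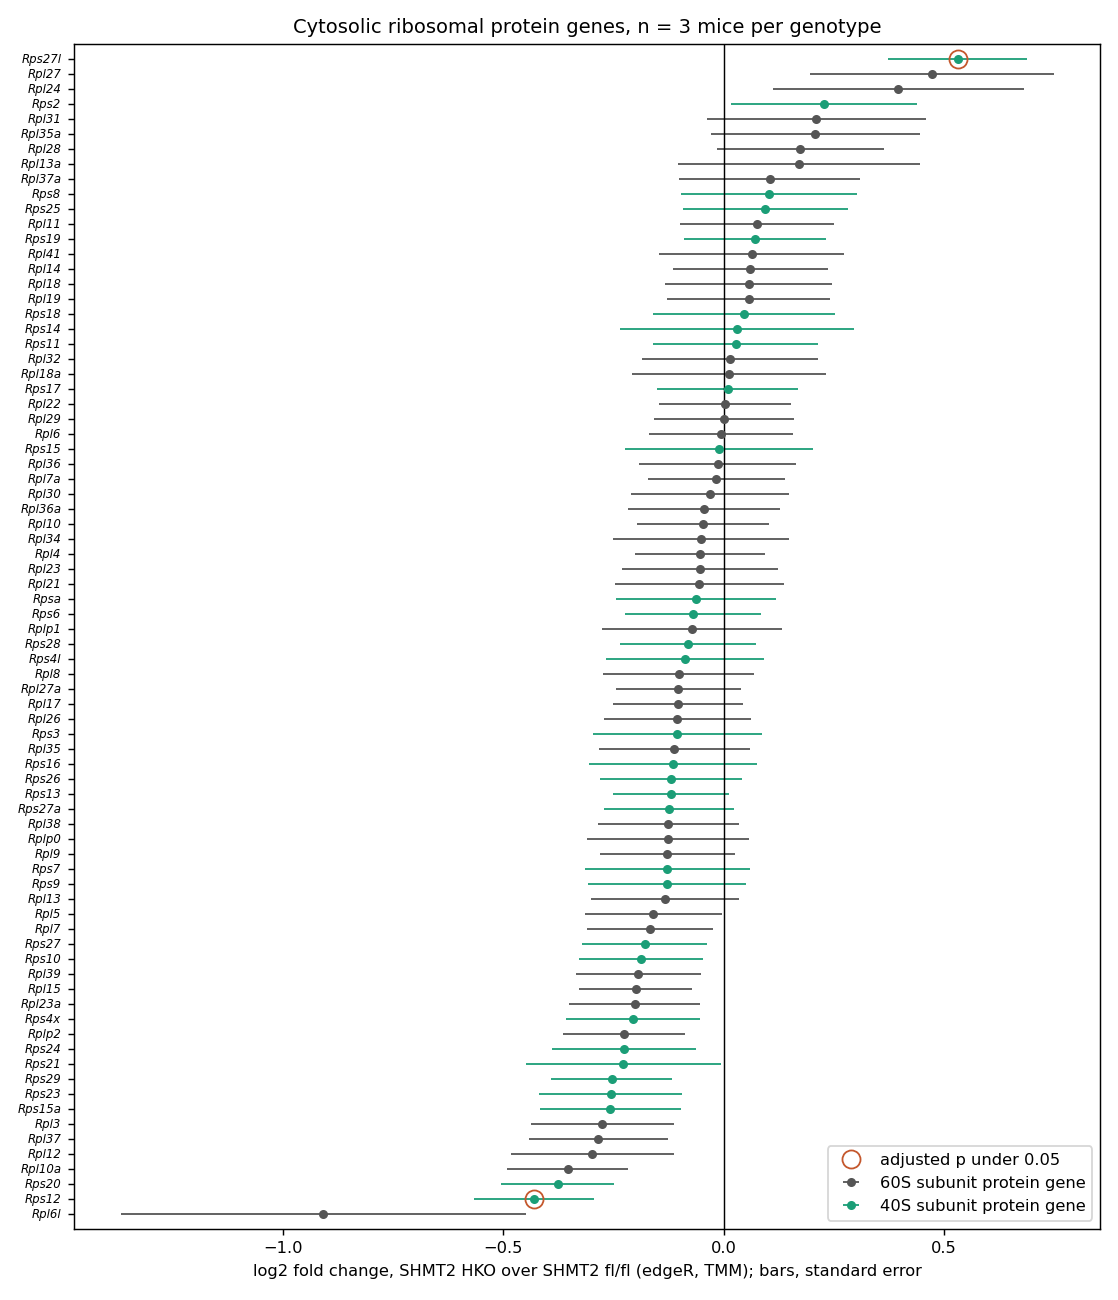
Log2 fold change (SHMT2 HKO over SHMT2 fl/fl, x axis, with standard error as bars) for 78 of the 79 cytosolic ribosomal protein genes, ordered by value, with 60S genes in grey, 40S genes in green and the called genes ringed. The values run from -0.91 for Rpl6l to 0.53 for Rps27l, and 71 of the points lie within 0.3 of 0.

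Rps27l and Rps27 encode near-identical versions of the small-subunit protein eS27, and only 1 of them sits in a given ribosome. Rps27l is also known as a target of p53. Rps27l (chr9:66946086-66949516, plus strand, GRCm38) was measured at 85.9, 85.5 and 108 CPM in SHMT2 fl/fl mice 1 to 3 and at 155, 135 and 113 CPM in SHMT2 HKO mice 1 to 3. Every SHMT2 HKO value lay above every SHMT2 fl/fl value, although SHMT2 HKO mouse 3 was only slightly above SHMT2 fl/fl mouse 3. Its log2 fold change was 0.53 ± 0.158 (SE, adjusted p = 0.0372, edgeR) with TMM, 0.10 (adjusted p = 0.589) with library size alone and -0.26 (adjusted p = 0.676) with spike-in counts as library size. The call was kept without SHMT2 HKO mouse 3 and lost without any other single mouse, with an adjusted p of 0.0529 to 0.135. It was also lost with upper quartile scaling, the GC and length correction and the replicate block.

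Rps27 (chr3:90212522-90213651, minus strand) stood at 104, 127 and 134 CPM in SHMT2 fl/fl mice and at 116, 110 and 96.3 CPM in SHMT2 HKO mice. These ranges overlapped, and the fitted log2 value was -0.18 ± 0.141 (SE, adjusted p = 0.379, edgeR). The ratio of Rps27l to Rps27 counts within a mouse does not depend on how libraries are scaled. It was 0.829, 0.673 and 0.802 in SHMT2 fl/fl mice 1 to 3 and 1.34, 1.22 and 1.18 in SHMT2 HKO mice 1 to 3. The ratio lay above 1 in each SHMT2 HKO mouse and below 1 in each SHMT2 fl/fl mouse. Its mean was 0.768 ± 0.0834 (SD, n = 3) with the floxed gene intact and 1.25 ± 0.0824 (SD, n = 3) in SHMT2 HKO livers, a difference of 0.70 on the log2 scale (p = 0.1 by a two-sided exact permutation test, the smallest possible). This ratio was chosen after the fold changes were seen. The counts of such similar genes hold only uniquely placed reads.

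For Rps4l and Rps4x the ratio overlapped between the genotypes. Rps4l, an autosomal copy of the X-linked Rps4x that the annotation lists as a transcribed processed pseudogene, had 0.0653 ± 0.0102 (SD, n = 3) counts per Rps4x count in SHMT2 fl/fl mice, and in SHMT2 HKO mice 0.0722 ± 0.00886 (SD, n = 3; p = 0.5 by a two-sided exact permutation test).

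Rps12 encodes the small-subunit protein eS12, known from work in flies as a sensor in cell competition. Rps12 (chr10:23785183-23787275, minus strand) stood at 215, 240.0 and 263 CPM in SHMT2 fl/fl mice 1 to 3 and at 193, 169 and 171 CPM in SHMT2 HKO mice 1 to 3. The genotypes did not overlap, and the mean was 25.8% lower in the SHMT2 HKO group. The log2 fold change was -0.43 ± 0.136 (SE, adjusted p = 0.0460, edgeR). The call was kept without SHMT2 HKO mouse 1 or 3 and lost without any other single mouse, with an adjusted p of 0.0652 to 0.177. It was also lost with ERCC counts, the GC and length correction and the replicate block. The same held without a filter beyond 1 count and with the family's summed counts as library size. The ratio of Rps12 to Rplp0 counts within a mouse overlapped (p = 0.2 by a two-sided exact permutation test). It was 0.406, 0.365 and 0.411 in SHMT2 fl/fl mice 1 to 3 and 0.291, 0.306 and 0.371 in SHMT2 HKO mice 1 to 3.

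**Figure D2:**
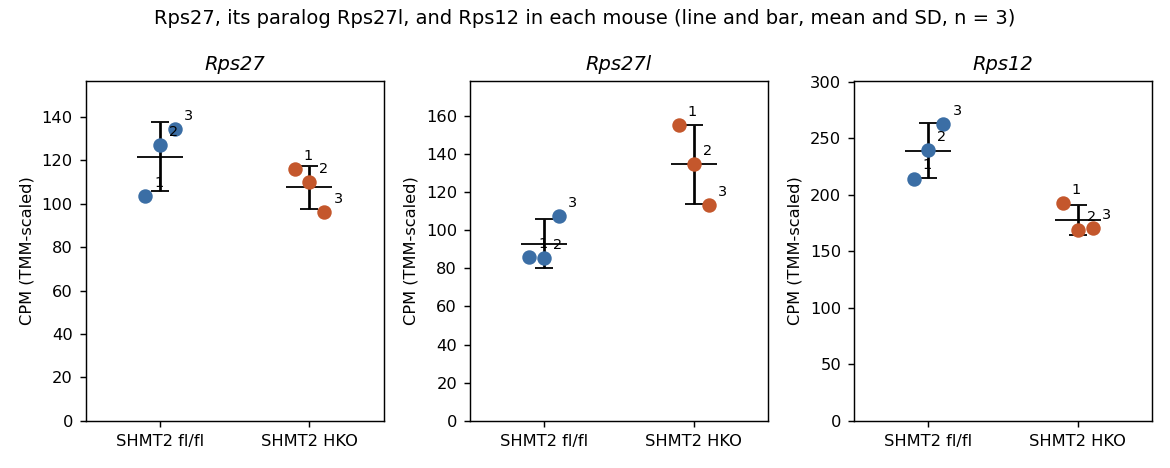
TMM-scaled CPM (y axis, from 0) of Rps27, Rps27l and Rps12 in each mouse, numbered 1 to 3 within its genotype, with the mean and SD (n = 3). On this scale Rps27l lies between 113 and 155 CPM in SHMT2 HKO mice against 85.5 to 108 in SHMT2 fl/fl mice, Rps12 lies lower in all 3 SHMT2 HKO mice, and Rps27 overlaps; with spike-in counts as library size Rps27l has a log2 fold change of -0.26.

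Apart from Rps12 and Rps27l, the genotypes did not overlap on this scale for 3 genes, Rps20, Rpl10a and Rpl6l, each lower in SHMT2 HKO mice. In all, 4 genes lay below and 1 above without overlap, against 25.0% and 21.9% of all genes. Rps20, encoding uS10 in the head of the small subunit, was at 141, 155 and 176 CPM in SHMT2 fl/fl and 126, 121 and 116 CPM in SHMT2 HKO mice. Its log2 fold change was -0.38 ± 0.128 (SE, adjusted p = 0.0584). Rpl10a, encoding uL1 of the mobile L1 stalk, was at 208, 260.1 and 249.7 CPM and then 194, 191 and 177 CPM, with a log2 fold change of -0.35 ± 0.137 (SE, adjusted p = 0.0857).

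Rpl6l gave the lowest value, -0.91 ± 0.460 (SE, adjusted p = 0.175). It is annotated as a processed pseudogene of Rpl6 and rested on 23 to 29 counts in SHMT2 fl/fl and 5 to 14 counts in SHMT2 HKO mice, so its fold change was poorly determined.

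The highest fold changes after Rps27l belonged to large-subunit genes that differed widely among the SHMT2 HKO mice. Rpl27, encoding eL27, was at 165, 194 and 171 CPM in SHMT2 fl/fl mice and at 360.0, 219.6 and 156 CPM in SHMT2 HKO mice 1 to 3. Rpl24, encoding eL24 at the bridge to the small subunit, was at 39.0, 45.2 and 42.7 CPM and then at 84.4, 47.4 and 35.3 CPM. In both genes SHMT2 HKO mouse 1 was the highest of all 6 mice and SHMT2 HKO mouse 3 the lowest. Their log2 fold changes were 0.47 ± 0.277 (SE, adjusted p = 0.236) and 0.40 ± 0.285 (SE, adjusted p = 0.335).

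The 3 SHMT2 HKO mice kept 1 order across nearly the whole family. SHMT2 HKO mouse 1 was the highest of the 3 for 78 of 79 genes, the exception being Rps4l, and SHMT2 HKO mouse 3 was the lowest for 74. Over all genes tested, mouse 1 was the highest of the 3 for 35.1%. Measured against the SHMT2 fl/fl mean, 61 genes were above it in SHMT2 HKO mouse 1, 17 in mouse 2 and 1 in mouse 3. The median deviation over the family was -0.17, 0.07 and 0.12 (log2) in SHMT2 fl/fl mice 1 to 3, and 0.18, -0.14 and -0.33 in SHMT2 HKO mice 1 to 3. Both genotypes therefore varied from mouse to mouse by more than the difference between their means.

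The spread between SHMT2 HKO mice was also the wider. The coefficient of variation of the CPM had a median over the family of 18.4% in SHMT2 HKO and 11.1% in SHMT2 fl/fl mice, and it was larger in SHMT2 HKO mice for 67 of 79 genes. This was not particular to the family. Over all genes tested, the chi-square per gene between the counts of a pair of mice was also larger among SHMT2 HKO mice. It was 65.6 to 151 for SHMT2 HKO pairs and 26.9 to 56.0 for SHMT2 fl/fl pairs. Relative to the mean of the other 2, SHMT2 HKO mouse 1 stood highest for the low-count Rpl6l, followed by Rpl24, Rpl27, Rpl13a, Rps14, Rpl35a and Rpl31. Rps4l, at 21.5, 22.0 and 21.5 CPM, varied least among the SHMT2 HKO mice. Without mouse 1 the family's median log2 fold change was -0.23, beside 0.00 over all genes, with 2 genes called lower, Rps12 and Rpl12, and 0 higher, against 29.4% of all genes called in either direction and 17.4% called lower. Without mouse 3 it was 0.00, beside -0.02, with Rps27l and Rpl27 called higher and Rps12 lower, against 15.0% higher and 18.3% lower of all genes.

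**Figure D3:**
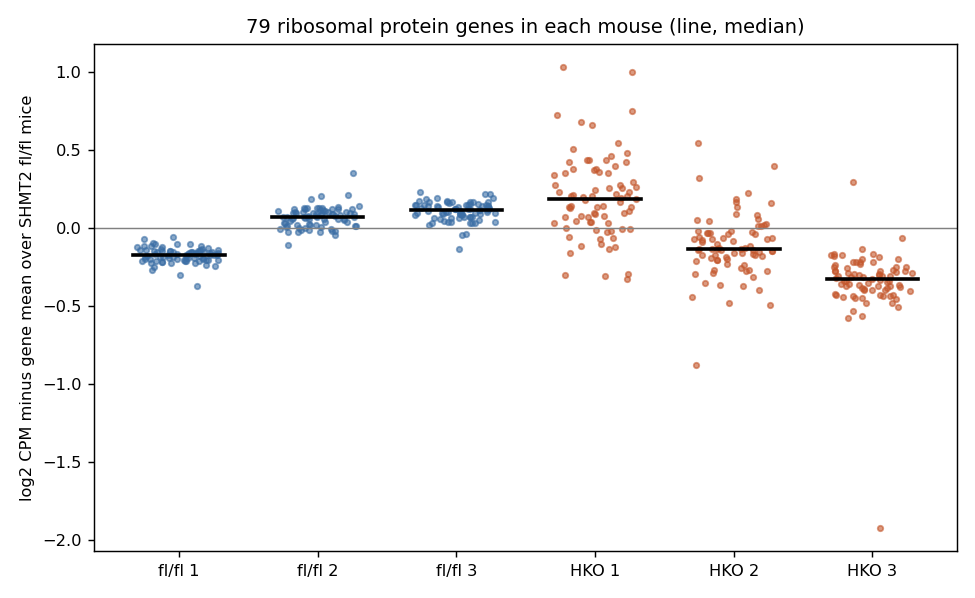
Log2 CPM of each of the 79 genes in each mouse minus that gene's mean over the SHMT2 fl/fl mice (y axis), with the median of each mouse as a line. The medians of the SHMT2 HKO mice are 0.18, -0.14 and -0.33, and the points are spread more widely there than in SHMT2 fl/fl mice, which are plotted against their own mean.

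The share of all gene counts held by the 79 genes gave another picture. It was 1.99%, 2.25% and 2.26% in SHMT2 fl/fl mice 1 to 3 and 1.76%, 1.41% and 1.47% in SHMT2 HKO mice 1 to 3. Every SHMT2 HKO mouse lay below every SHMT2 fl/fl mouse, with means of 2.16% ± 0.154 (SD, n = 3) and 1.55% ± 0.186 (SD, n = 3). By CPM without TMM, 62 of 79 genes lay below in SHMT2 HKO mice without overlap, against 46.8% of all genes. Both subunits moved alike, from 1.29% to 0.923% for the 60S genes and from 0.875% to 0.623% for the 40S genes. The ratio of 60S to 40S counts was 1.47 ± 0.0158 (SD, n = 3) in the first genotype and 1.48 ± 0.00704 (SD, n = 3) in the other, and the mice overlapped.

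A share also depends on what other genes take of the library, and the cause of the lower share was not tested. The 100 most abundant other genes took up 33.5% ± 0.952 (SD, n = 3 SHMT2 fl/fl mice) and 39.8% ± 2.58 (SD, n = 3 SHMT2 HKO mice) of the gene counts. With these left out of the total, the family's share was 3.26% ± 0.264 and 2.57% ± 0.362 (SD, n = 3 each), and the genotypes overlapped. As a share of the TMM-scaled library it was 1.87% ± 0.192 and 1.81% ± 0.340 (SD, n = 3 each), with overlap. The TMM factors were 1.13 to 1.21 in SHMT2 fl/fl and 0.802 to 0.984 in SHMT2 HKO mice.

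Counts per count of the ERCC spike-in RNAs, synthetic transcripts added to each sample, were 1.33, 1.20 and 1.57 for the SHMT2 fl/fl mice, then 0.622, 0.596 and 1.08 for the SHMT2 HKO mice. The SHMT2 HKO mice lay below, and mouse 3, the lowest of its genotype under TMM, was the highest here. The spike-in RNAs are set by the amount of RNA put into the library and need not follow the amount in the cell.

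**Figure D4:**
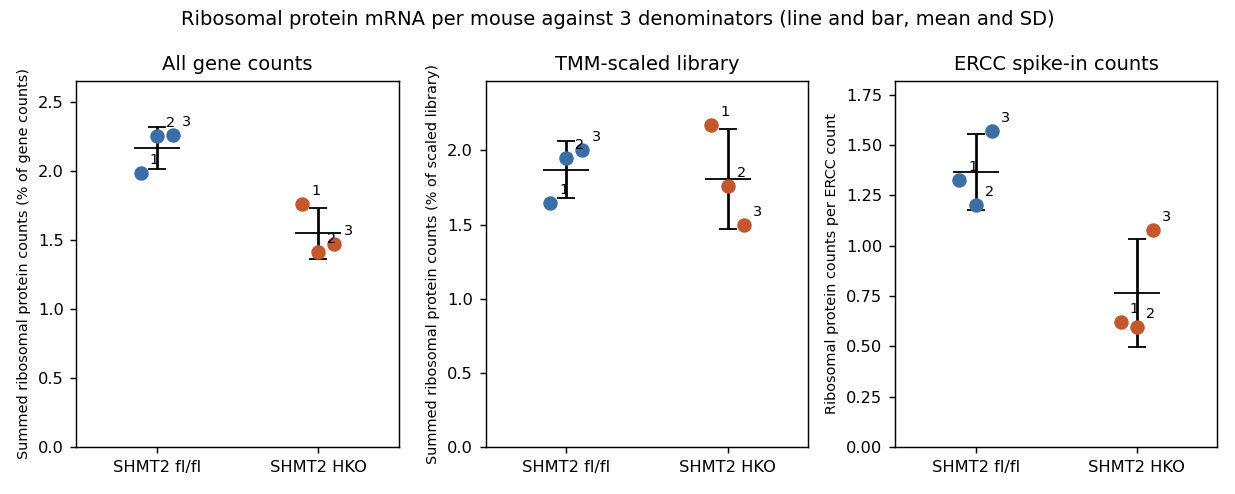
Summed counts of the 79 genes in each mouse (numbered points, with mean and SD, n = 3) as a percentage of gene counts, as a percentage of the TMM-scaled library, and per ERCC spike-in count, with y axes from 0. The SHMT2 HKO mice lie below the SHMT2 fl/fl mice relative to gene counts and to spike-in counts, and overlap with them under TMM.

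The number of calls in this family therefore depended on the scaling. With library size alone, 0 genes were called higher and 55 lower, against 3.34% and 30.6% of all genes, and the medians of the family and of all genes were -0.51 and -0.40. With ERCC counts as library size these medians were -0.87 and -0.69, with 0 genes called higher and 1 lower, Rpl6l, against 0.665% and 17.1% of all genes. The family's median minus that of all genes moved less. A change of library size shifts the fold changes of all genes nearly alike, so this difference could hardly move with the scaling. It lay between -0.18 and -0.05 over the 12 ways of scaling, filtering and testing that used all 6 mice. It was -0.23 without SHMT2 HKO mouse 1 and 0.02 without SHMT2 HKO mouse 3.

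**Figure D5:**
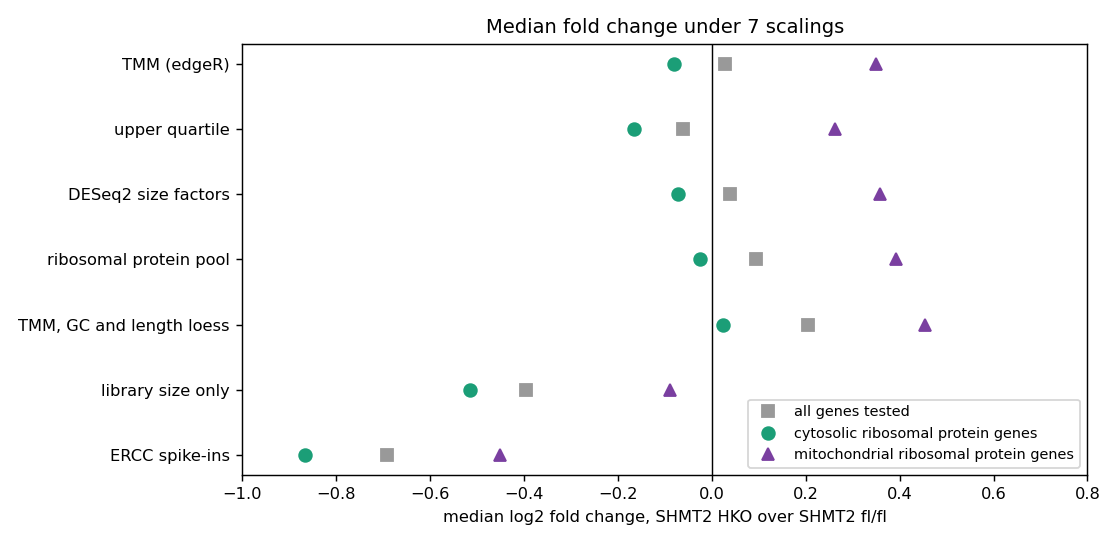
Median log2 fold change (SHMT2 HKO over SHMT2 fl/fl, x axis) of all genes tested, of the 79 cytosolic ribosomal protein genes and of 78 mitochondrial ribosomal protein genes under 7 scalings. In each row the cytosolic median lies to the left of all genes and the mitochondrial median to the right, while the zero line falls differently with the scaling. A change of library size shifts the medians nearly alike, so the rows are not separate evidence for this order.

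Groups within the family are given by their values, and differences between them were not tested. The median log2 fold change was -0.12 over the 32 small-subunit genes, of which 9 lay above 0, and -0.05 over the 47 large-subunit genes, of which 16 did. The stalk proteins Rplp0, Rplp1 and Rplp2, which recruit translation factors, had values of -0.13, -0.07 and -0.23, and 0 of 3 were called. Rpl5 and Rpl11, which carry 5S rRNA into the ribosome and bind MDM2 when assembly fails, had values of -0.16 and 0.08. Of 8 genes whose proteins lie around the exit tunnel and of 9 mutated in Diamond-Blackfan anaemia, 0 were called, with medians of -0.10 and -0.12. These 4 groups also had 0 genes at an unadjusted p under 0.05 in edgeR with TMM and 0 called by DESeq2 or limma-voom. With library size alone in edgeR, genes of these groups were called lower. Among them were Rplp0, Rplp1 and Rplp2 (adjusted p = 0.0160, 0.0322 and 0.00464) and Rpl5 (adjusted p = 0.0154).

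Other genes of the family have roles outside their place in the subunit. Rps6, whose protein is phosphorylated downstream of mTORC1, was at 245, 276 and 303 CPM in SHMT2 fl/fl and 299.7, 250.4 and 234 CPM in SHMT2 HKO mice, a log2 fold change of -0.07 ± 0.153 (SE, adjusted p = 0.764). Rpsa, which also serves as a laminin receptor, had -0.06, and Rps27a, made as a fusion with ubiquitin, had -0.12. Of 5 genes often used as references in quantitative PCR, 0 were called by edgeR with TMM, DESeq2 or limma-voom. In edgeR with TMM 0 had an unadjusted p under 0.05, but Rplp0 was called lower with library size alone. Among them Rplp0 had -0.13, Rps18 had 0.05 and Rpl13a had 0.17. The 3 SHMT2 HKO mice differed widely in Rpl13a, at 362, 221 and 162 CPM, against 196 to 253 CPM in SHMT2 fl/fl mice.

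Levels per length are given as CPM per kilobase of the principal transcript. The median over the family was 299.5 in SHMT2 fl/fl mice and 290.6 in SHMT2 HKO mice. Rps2, encoding uS5, was the most abundant at 881 and 1032, followed by Rplp1 at 809 and 770, Rpl10 at 631 and 611, Rps14 at 582 and 594, Rps12 at 484 and 359, and Rpl41 at 470 and 491. Of these 6 genes, Rps12 was the only one called. The least abundant were Rpl6l at 0.861 and 0.457, Rps4l at 29.2 and 27.5, and Rps20 at 42.4 and 32.7. The value of Rps20 is divided by an annotated transcript of 3706 bases, so it reads low.

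Ribosomal proteins whose symbols do not follow the pattern were read beside the family. Of 8 such genes, 1 was called higher, Rpl36al, a copy of Rpl36a, and 0 lower, against 12.5% and 16.5% of all genes. Rpl36al was at 116, 135 and 136 CPM in SHMT2 fl/fl and 260.4, 198 and 148 CPM in SHMT2 HKO mice, a log2 fold change of 0.65 ± 0.204 (SE, adjusted p = 0.0452). Among the others, Rps3a1 had -0.09, Rack1 -0.20 and Fau 0.18.

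Genes that act beside or with the family were read in the same fit. Mitochondrial ribosomal proteins, which serve the separate ribosome that translates mitochondrially encoded mRNAs, had 12 of 78 genes called higher and 0 lower, with a median of 0.35. These counts stand beside 12.5% and 16.5% of all genes. With library size alone 0 were higher and 2 lower, and the median was -0.09. Leaving out SHMT2 HKO mouse 3 gave 54 higher, and leaving out any other single mouse 0 to 6. Mrpl41 (0.64) and Mrpl34 (0.63) were highest among those called. The difference between the medians of the cytosolic and mitochondrial lists, -0.08 and 0.35, was not tested.

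The translation factors lay mostly above 0 with TMM. With library size alone, 0 genes of the non-mitochondrial pathway lists described here were called higher and 27 lower. In that setting 3.34% of all genes were called higher and 30.6% lower. Some genes stand in more than 1 list, so the sizes of the lists do not add up to a total. The counts of the following lists stand beside 12.5% higher and 16.5% lower over all genes. Of 35 initiation factors, 5 were called higher and 0 lower, with a median of 0.17. Among them Eif4a2, a helicase that unwinds 5′ leaders, had 0.58 ± 0.129 (SE, adjusted p = 0.0130), and Eif3j1 had 0.57 ± 0.123 (SE, adjusted p = 0.0120). Of 9 elongation factors, 1 was called higher, Eef1e1 (0.44), a component of the aminoacyl-tRNA synthetase complex, and the median was 0.22. Eef1a1 and Eef2, whose mRNAs carry a TOP motif as the family's do, had 0.22 (adjusted p = 0.376) and 0.24 (adjusted p = 0.356).

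Of 23 other TOP mRNAs, 2 were called higher, Slc25a5 (0.57) and Eif2s3x (0.41), and 1 lower, Hnrnpa1 (-0.46), with a median of 0.17. Of 47 ribosome assembly genes, 2 were called higher and 0 lower, with a median of 0.11. These were Nop10 (0.77), part of the box H/ACA particle that guides pseudouridylation, and Sbds (0.40), which helps to release Eif6 from new 60S subunits. Of 17 RNA polymerase I genes, 0 were called higher and 2 lower, with a median of 0.04. Taf1c (-0.70) and Taf1b (-0.56) both encode parts of SL1, the factor that brings the polymerase to ribosomal DNA. Of 22 genes of the mTOR pathway and TOP mRNA control, 2 were called higher, Deptor (0.62), an inhibitor of mTOR, and Akt2 (0.46), and 0 lower, with a median of 0.25.

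Whole liver was sequenced, so fewer cells of a type and less RNA per cell cannot be told apart. The markers of several cell types differed between the genotypes. Their counts stand beside 12.5% higher and 16.5% lower over all genes. Of 9 hepatocyte markers, 3 were called higher and 0 lower, and their summed CPM ranged from 55493 to 68105 in SHMT2 fl/fl and from 68249 to 100474 in SHMT2 HKO mice. All 5 cholangiocyte markers were called lower (summed CPM from 950.4 to 1179 against 128 to 245). Most of that sum was 1 gene, Spp1, with means of 870 CPM in SHMT2 fl/fl and 141 CPM in SHMT2 HKO mice. Of 10 T and NK cell markers, 9 were called lower (26.2 to 34.8 against 6.22 to 7.23). Of 10 stellate cell and fibroblast markers, 6 were called lower and 1 higher (1549 to 1624 against 379 to 964), and of 10 macrophage markers 6 were lower and 2 higher (603 to 825 against 453 to 553). Of 7 B and plasma cell markers 1 was lower (11.7 to 19.4 against 4.96 to 6.98), and all 7 fold changes lay below 0. Of 4 neutrophil markers 1 was lower (7.63 to 11.8 against 4.45 to 8.14), and 2 fold changes lay above 0. Of 8 endothelial markers 2 were higher (329 to 340.0 against 336 to 406), and 4 fold changes lay below 0. Of 5 erythroid markers 1 was higher (101 to 188 against 219 to 245), and all 5 fold changes lay above 0. With 1 or 2 calls each, the last 4 lists are too short to set apart from the shares over all genes. No marker was at 0 in every mouse, and their part in the ribosomal protein values was not tested.

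Of the 79 genes, 29 hold small nucleolar RNA genes in their bounds, 56 in all, and 37 have exons that overlap another annotated gene, for 18 of them on the other strand. The strand setting of the counting is not given in the sources used here, so reads of genes that overlap on opposite strands, such as Rpl10a, Rpl31, Rps27a and Rps18, cannot be told apart from those of their neighbours.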

How the data were processed

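Liver RNA libraries of 3 SHMT2 fl/fl and 3 SHMT2 HKO mice were prepared with the NEBNext Ultra kit and read as pairs on an Illumina HiSeq instrument. The submitters' processing notes name Trimmomatic 0.36, STAR 2.5.2b and featureCounts of Subread 1.5.2. The authors aligned reads to GRCm38 with ERCC sequences, and the deposited values are counts of unique hits per gene, without normalization. Columns were assigned to mice by their titles. The 92 ERCC entries were kept out of library sizes and tests. Gene IDs were given symbols, positions and lengths from GENCODE vM21. The 345 IDs without a symbol held 0.0416% of gene counts.

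The counts were filtered (filterByExpr), TMM-scaled and compared with the two-sided quasi-likelihood F test, robust setting, of edgeR 4.0.16 in R 4.3.3. Its p-values were adjusted by Benjamini-Hochberg over 16089 genes and stand wherever no other tool is named. Total gene counts were 23090837 to 34089722 per mouse. Levels per length used the shortest transcript of the best APPRIS rank. The members and lists were chosen with earlier results of these data known. Genes named are the 6 highest and 6 lowest fold changes, the 6 most and 3 least abundant, genes of known roles, paralog pairs, and up to 4 called genes per pathway list. Some results of this rule are not reported here. Alternatives were DESeq2 1.42.0, limma-voom (limma 3.58.1), other scalings and filters, a loess correction for GC content and exon length (span 0.5), the replicate block and leaving out each mouse. The code was tested on simulated data.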

Additional observations from a re-analysis of the deposited data

How the results depend on the processing

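Among the 79 genes, the counts called higher and lower, 1 and 1 in the main test, were 0 and 55 with library size alone, 0 and 3 with upper quartile scaling, 0 and 1 with ERCC counts, 1 and 1 with limma-voom, 1 and 2 with DESeq2, and 1 and 2 with at least 10 counts in every sample. They were 1 and 0 without a filter beyond 1 count, 0 and 0 with the GC and length correction, 0 and 0 with the replicate block, and 1 and 0 with the summed counts of the family as library size, a setting chosen after seeing the data. Leaving out each mouse in turn gave 0 to 2 higher and 0 to 2 lower. Rps27l reversed with ERCC counts, to -0.26 (adjusted p = 0.676).

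At the study's cutoff, 1 higher and 4 lower became 0 and 67 with library size alone, 0 and 35 with ERCC counts, 2 and 1 with the GC and length correction, 2 and 0 with the family's counts, 1 and 7 with upper quartile scaling and 1 and 2 with the block, and 1 to 5 and 0 to 12 without each mouse. Genes of the pathway lists called at an adjusted p under 0.05, 12 higher and 3 lower, became 0 and 27 with library size alone. They became 6 and 6 (upper quartile), 1 and 0 (ERCC) and 50 higher (GC and length). With the block they were 4 and 1, with the family's counts 7 and 0, and without each mouse 0 to 20 and 0 to 3. The shares of all genes were 12.5% higher and 16.5% lower in the main test and 3.34% and 30.6% with library size alone. They were 9.08% and 18.9% (upper quartile), 0.665% and 17.1% (ERCC) and 25.7% and 13.6% (GC and length). With the block they were 8.68% and 13.6%, and with the family's counts 8.50% and 10.4%.

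The family's median moved from -0.08 to -0.51 with library size alone and -0.87 with ERCC counts, and the 40S minus 60S median from -0.063 to -0.044 with the GC and length correction and to between -0.076 and -0.035 without each mouse. The log2 ratio of the share of gene counts, -0.48, stayed between -0.59 and -0.42 without each mouse. The cause of these moves was not tested. Same-numbered mice did not deviate together (correlations of -0.05, 0.01 and -0.08), so the block joins mice by number alone. With 3 mice per genotype, an exact test cannot go below p = 0.1.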
